A study of Mus musculus with 6 samples.

Results

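Among 54232 genes listed for splenic regulatory T cells, 85 had a low level in wild-type (WT) libraries and a clearly higher one in BAF60b knockout (KO) libraries. Levels are given as CPM, which is the read count of a gene divided by the total count of its library and multiplied by 1000000. A gene belonged to the set when its mean over the 3 WT libraries was under 2 CPM, when its mean over the 3 KO libraries was at least 1 CPM and at least 2 times the WT mean, and when the lowest KO library lay above the highest WT library. Genes without an official name, zinc finger genes named Zfp, solute carriers, Arhg and Dock genes, antigen receptor genes, genes on X and Y, and Lamb3, Npnt, Itga7 and Thbs3 were left out. The limits on level and separation were met by 111 genes, of which 26 were left out by name or chromosome. Because the measured values of both genotypes chose the members, their KO to WT differences are a description and carry no test.

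Regulatory T cells (Treg cells) are CD4 T cells that restrain immune responses and depend on the transcription factor Foxp3. BAF60b, the product of Smarcd2, is an accessory subunit of the SWI/SNF (BAF) complex, which uses ATP to move or evict nucleosomes. Such remodelling can open the start site of a gene or keep it closed, so genes with little transcript in a cell type are of interest when a subunit is lost. SWI/SNF complexes are known for opening enhancers bound by lineage transcription factors in T cells.

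The samples were GFP+ Treg cells taken from the spleen, 3 libraries from WT mice and 3 from mice with a conventional, whole-body knockout of BAF60b. Both groups carry the GFP marker by which the cells were isolated, no treatment is named for either, and the labels give neither the gene that drives GFP nor the strain, age or sex of the mice. A conventional knockout is not limited to Treg cells, so the KO cells developed in a host whose other cells carry the deletion too. Libraries are numbered within each genotype, and nothing states that each came from a separate mouse, so a p-value reflects the spread among libraries, which may be technical.

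Library totals ranged from 18167053 to 22502804 counted reads, and a count of 0 allows between 0.133 and 0.165 CPM (3 reads, counting error only). Smarcd2 itself (chr11:106263179-106272972, minus strand, mm10) went from 197.6 ± 8.08 CPM in WT to 58.4 ± 0.921 CPM in KO (mean ± SD, n = 3, as throughout), with all KO libraries below all WT libraries and reads remaining in each. Foxp3 was at 554.9 ± 11.5 CPM in WT libraries and 597.6 ± 14.7 CPM in KO libraries, and the summed level of 8 Treg markers was between 4453 and 5008 CPM in every library. Within that sum 2 markers moved in opposite directions by edgeR's quasi-likelihood test. Ikzf2 had 624.1 to 709.5 CPM in WT and 810.2 to 936.9 CPM in KO (adjusted p = 0.00527). Nrp1 had 314.3 to 341.6 CPM in WT and 214.1 to 235.6 CPM in KO (adjusted p = 0.000613). Reads of Y-linked genes made up 0.936 CPM in WT 1 and 1.19 CPM in KO 2 and between 146.4 and 455.0 CPM in the other libraries. Xist, which is transcribed from the inactive X of females, had 455.0, 253.8 and 127.6 CPM in WT 1, 2 and 3 and 87.6, 441.0 and 0 CPM in KO 1, 2 and 3. WT 2, WT 3 and KO 1 thus had reads of both kinds, the labels do not say whether a library pools several mice, and n = 3 counts libraries. KO 2 stood apart in markers of other cells: 7 macrophage markers (8 were listed, and Ccr2, which T cells also express, was taken out after its values were seen) summed to 228.0 CPM there, against 63.1 to 78.3 CPM in WT, 95.0 CPM in KO 1 and 34.2 CPM in KO 3. With Ccr2 the sums were 178.1 to 201.4 CPM in WT and 165.9, 327.1 and 107.8 CPM in KO 1, 2 and 3. Red cell markers followed, at 12.8 CPM in KO 2 and between 0.667 and 3.52 CPM elsewhere. In bulk RNA, fewer cells of a type and less RNA per cell cannot be told apart.

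The 85 members together had 67.0, 63.9 and 71.6 CPM in WT 1, 2 and 3, and 176.8, 221.9 and 205.7 CPM in KO 1, 2 and 3. The summed level was thus close to even within WT and highest in KO 2, and all KO sums lay above all WT sums, as the choice of members fixes. In reads the sums were 1217 to 1442 per WT library and 3559 to 4628 per KO library. The ratio of the KO mean to the WT mean ranged from 2.06 to 21.7 with a median of 2.61. It was between 2 and 3 for 59 members, at least 3 for 26, at least 4 for 19 and at least 5 for 10.

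**Figure D1:**
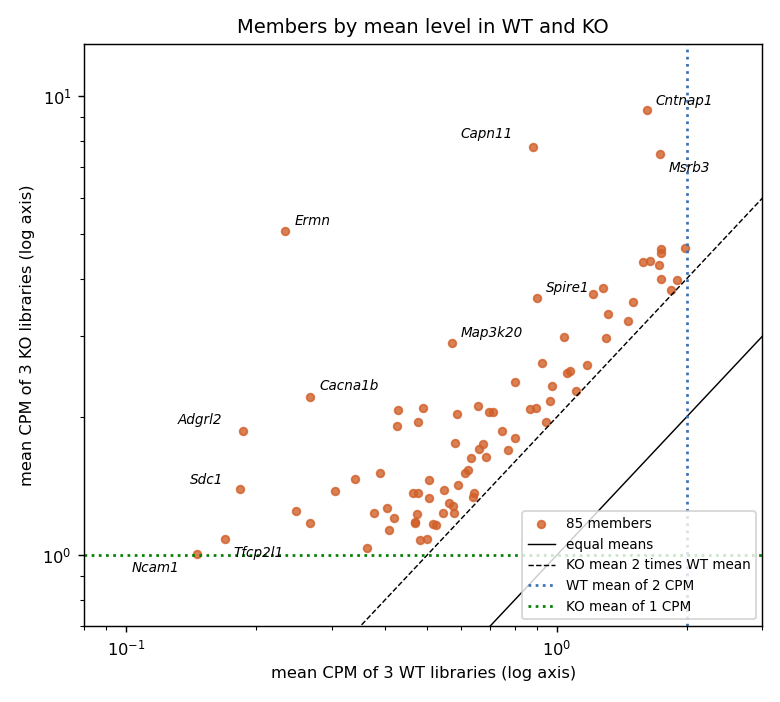
Mean level of each member in KO (vertical axis) against its mean level in WT (horizontal axis), both in CPM on log axes and one point per gene, with the limits of the rule drawn as lines. The 85 points spread from ratios just over 2 to 21.7 for Ermn, at the upper left.

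The members were low in WT rather than silent. All 85 had reads in WT and 1, Capn11, had a WT library without a read. The WT mean was under 0.5 CPM in 26 members and under 1 CPM in 63, with a median of 0.633 CPM, and the largest count of any member in a WT library was 45 reads. Levels stayed low in KO as well, with a median of 1.87 CPM. The KO mean was between 1 and 2 CPM in 46 members, at least 2 CPM in 39 and at least 4 CPM in 10, and member counts in a KO library ran from 12 to 269 reads. Scaled by exon length (RPKM, CPM per 1000 bases of annotated exon), the median member went from 0.184 in WT to 0.484 in KO, beside 5.85 and 5.87 over all 13602 genes that passed a filter on low counts. A KO level of at least 1 RPKM was reached by 22 members, and Gzmc, Il18 and Grifin had that level in WT already.

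All 85 passed that filter. By edgeR's quasi-likelihood test, 62 of them were called higher and 0 lower at an adjusted p under 0.05, beside 3.25% of tested genes called higher and 3.2% lower (6.45% in all), and nothing is read from this count because the rule used the same contrast. Of 709 genes that were open to the rule by name, WT mean and KO mean, 12.0% were members. The same limits with the genotypes exchanged were met by 40 of 506 genes (7.91%). The lowest KO library lay above the highest WT library in 13.6% of all tested genes. Protein-coding genes made up 83 of the 85 members (97.6%) and 630 of the 709 (88.9%), and the remaining members were Cd1d2, annotated as a polymorphic pseudogene, and Eif3s6-ps2, a processed pseudogene.

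At the limit on the WT mean, the members just inside were Fam81a (1.98 CPM), Hey1 (1.90) and Gzmc (1.84), and the genes just outside were Dscam (2.11), Txlnb (2.18) and Selenbp1 (2.25). At the limit on the KO mean, Ncam1 (1.01 CPM), Ric3 (1.04) and Kndc1 (1.08) were inside and Col1a2 (0.992), Pls1 (0.990) and Ctgf (0.987) outside. At the limit on the ratio, Gzmc (2.06), Grifin (2.06) and Ccdc148 (2.07) were inside and Yes1 (1.99), Akap5 (1.96) and Tifa (1.96) outside. The gap between the lowest KO and the highest WT library was smallest in Grk3 (0.0154 CPM), Kndc1 (0.0344) and Derl3 (0.0496), while in Agap1, Aif1 and Mir142b the groups overlapped, with gaps of -0.0553, -0.0787 and -0.0925 CPM.

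Promoter sequence was at hand for 59 of the 85 members in a RefSeq table (GRCm38.p6, the build also called mm10), and 5 are shown to set the members that later results turn on beside each other. They are Ermn, the member with the highest ratio, Map3k20 and Cacna1b, which lie on the same chromosome and also had ratios above 5, Gzmc, the cytotoxic member, and Plekhh3, whose start lies within the span of the member Cntnap1. Each line is the 250 bases upstream of the annotated start, 5′ to 3′ on the strand of the gene, in lower case. Capitals mark a GC box (GGGCGG or its complement CCGCCC) or a RUNX motif (TGTGGT or its complement ACCACA).
Ermn, chr2:58052865-58053114, minus strand: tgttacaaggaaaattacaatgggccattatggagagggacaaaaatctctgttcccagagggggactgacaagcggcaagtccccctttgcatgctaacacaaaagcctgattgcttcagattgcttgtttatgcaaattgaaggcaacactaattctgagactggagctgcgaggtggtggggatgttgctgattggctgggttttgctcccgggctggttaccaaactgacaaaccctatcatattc
Map3k20, chr2:72285387-72285636, plus strand: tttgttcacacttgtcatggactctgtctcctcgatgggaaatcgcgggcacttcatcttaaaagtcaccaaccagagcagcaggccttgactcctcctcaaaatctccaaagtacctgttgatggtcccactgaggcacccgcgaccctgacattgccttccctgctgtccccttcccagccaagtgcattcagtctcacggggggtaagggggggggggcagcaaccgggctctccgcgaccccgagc
Cacna1b, chr2:24763153-24763402, minus strand: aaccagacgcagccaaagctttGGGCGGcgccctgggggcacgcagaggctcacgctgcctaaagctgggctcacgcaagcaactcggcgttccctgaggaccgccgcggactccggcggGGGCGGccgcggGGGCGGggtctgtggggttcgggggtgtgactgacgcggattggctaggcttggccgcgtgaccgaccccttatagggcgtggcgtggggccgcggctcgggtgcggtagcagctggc
Gzmc, chr14:56234658-56234907, minus strand: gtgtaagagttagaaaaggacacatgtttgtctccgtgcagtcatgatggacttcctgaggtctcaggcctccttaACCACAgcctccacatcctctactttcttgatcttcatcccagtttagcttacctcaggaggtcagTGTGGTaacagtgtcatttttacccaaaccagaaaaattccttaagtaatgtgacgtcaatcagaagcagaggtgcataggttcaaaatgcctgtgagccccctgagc
Plekhh3, chr11:101171373-101171622, minus strand: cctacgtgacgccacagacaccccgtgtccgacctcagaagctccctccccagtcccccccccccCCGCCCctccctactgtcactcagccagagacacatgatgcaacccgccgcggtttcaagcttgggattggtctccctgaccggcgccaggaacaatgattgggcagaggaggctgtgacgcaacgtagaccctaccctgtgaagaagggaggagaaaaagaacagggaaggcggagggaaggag
These 5 windows differ widely in base content. The Ermn window holds 3 CpG and none of the motifs searched, at an observed over expected CpG ratio of 0.219. The Gzmc window holds 2 CpG (ratio 0.152) and a RUNX motif on each strand. Cacna1b has 29 CpG (ratio 0.924) and 3 GC boxes, Plekhh3 13 CpG and 1 GC box, and Map3k20 10 CpG and no motif.

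Across the 59 windows no motif was shared by all. A GC box, searched as GGGCGG on both strands, was in 40 windows (67.8%), beside 59.3% of 9689 tested genes with a promoter and 39.4% of all 20860 promoters in the table. A CpG ratio of at least 0.6, which marks CpG-rich promoters, was found in 32 (54.2%), beside 68.3% and 41.5%. The RUNX letters TGTGGT were in 8 (13.6%; 11.1% of tested genes), the letters TATAAA in 6 (10.2%; 6.08%) and the AP-1 letters TGANTCA in 1, that of Ypel4 (1.69%; 3.92%). Among 447 promoters of the other low genes open to the rule the shares were 49.2% for the GC box, 47.0% for the CpG ratio, 13.4% for RUNX, 6.26% for TATAAA and 5.59% for AP-1. These are counts of letters in a short window and were not tested.

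Proteins of adhesion, junctions and the cell surface formed a group of 11 members with a median ratio of 4.50 (range 2.12 to 10.01), beside 2.61 over all 85. Adgrl2 encodes latrophilin 2, an adhesion receptor known from synapses. It had 0.220, 0.190 and 0.149 CPM in WT 1, 2 and 3 and 1.39, 2.12 and 2.09 CPM in KO 1, 2 and 3, so KO 2 and KO 3 were nearly level and all WT values lay near the floor. Its mean went from 0.186 ± 0.0357 to 1.87 ± 0.411 CPM, a ratio of 10.01 that rests on 3 to 4 reads per WT library and 28 to 47 per KO library. Cntnap1 encodes Caspr, which builds the paranodal junction between axon and myelin, and had the highest KO mean of all members. Its values were 2.26, 0.903 and 1.69 CPM in WT and 4.82, 11.2 and 12.0 CPM in KO, with KO 1 well below the other KO libraries. The mean went from 1.62 ± 0.680 to 9.33 ± 3.92 CPM (ratio 5.77). Sdc1, the heparan sulphate proteoglycan syndecan 1 that also marks plasma cells, had 0.165, 0.238 and 0.149 CPM in WT and 1.54, 2.01 and 0.622 CPM in KO (ratio 7.57). KO 3 was the lowest KO library, as it was for Jchain, another plasma cell marker, which had 4.29, 4.90 and 6.86 CPM in WT and 18.5, 18.6 and 4.84 CPM in KO. Jchain was not called (adjusted p = 0.0961; log2 ratio 1.36, where log2 ratios here and below are edgeR's KO to WT estimates), the plasma cell markers Mzb1 and Tnfrsf17 were at or under 0.310 CPM in every library, the 5 listed plasma cell markers other than Sdc1 summed to between 199.0 and 202.6 CPM in WT and between 183.7 and 199.9 CPM in KO, nearly all of it Xbp1 (99.5 to 116.5 CPM) and Prdm1 (72.1 to 87.4 CPM), which Treg cells also express, and the part of such cells in the level of Sdc1 was not tested.

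Ncam1, the neural cell adhesion molecule that NK cells of some species also carry, rested on few reads. It had 1, 7 and 1 reads in WT and 12, 15 and 37 reads in KO, which gave 0.0550, 0.333 and 0.0497 CPM and then 0.596, 0.775 and 1.64 CPM. WT 2 alone held most of the WT reads, and the ratio of 6.89 became 19.2 without it. Lgi2, a secreted protein of synapses, had 0.165, 0.380 and 0.199 CPM in WT and 1.09, 1.45 and 1.20 CPM in KO (ratio 5.02). Tjp1, the tight junction scaffold ZO-1, had a ratio of 4.50 and Tns4, a tensin of focal adhesions, one of 4.29 with 2.09, 1.96 and 2.22 CPM in KO. Podxl, Npdc1, Ajuba and Efemp2 completed the group with ratios of 2.12 to 2.88.

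**Figure D2:**
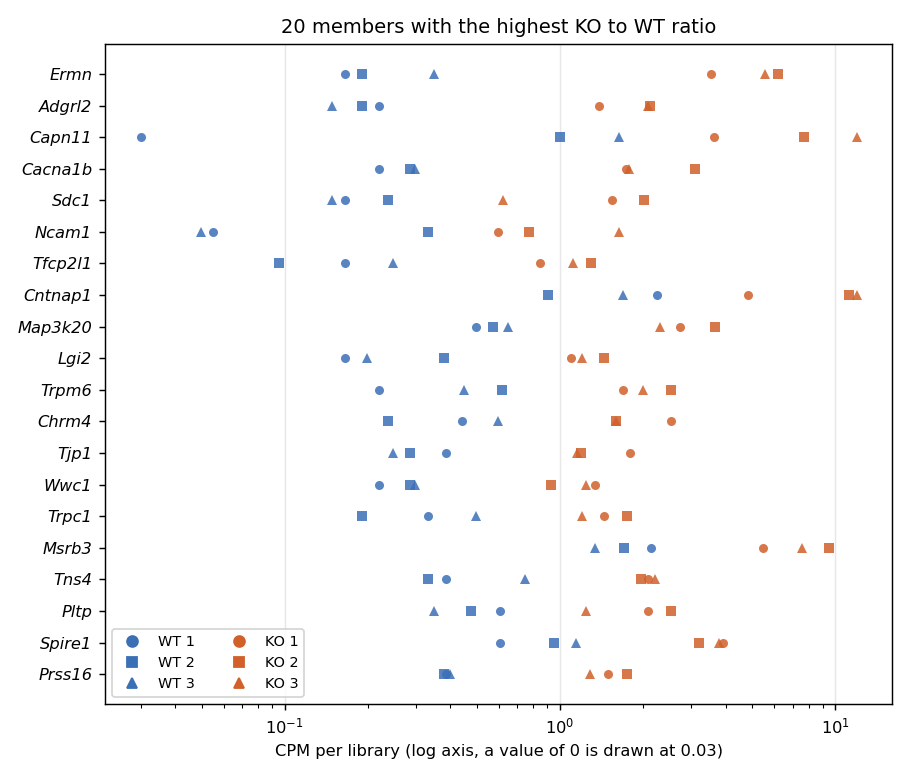
Level in each library (CPM, log axis, a value of 0 drawn near the left edge) of the 20 members with the highest ratio of KO mean to WT mean, with blue points for the 3 WT and orange points for the 3 KO libraries. Ermn is the most widely separated, at 0.165 to 0.348 CPM in WT and 3.53 to 6.197 CPM in KO, and Capn11 ranges from 0 to 1.64 CPM within WT.

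Ermn had the highest ratio of the set and led the 10 cytoskeletal members. It encodes ermin, an actin-binding protein known from the myelin of oligodendrocytes. Its reads were 3, 4 and 7 in WT and 71, 120 and 125 in KO. In CPM these are 0.165, 0.190 and 0.348 in WT and 3.53, 6.197 and 5.55 in KO, so the lowest KO library was more than 10 times the highest WT library. The mean went from 0.234 ± 0.0990 to 5.09 ± 1.39 CPM, a ratio of 21.7, from 0.0645 to 1.40 RPKM. The gene lies at chr2:58045113-58052864, and its promoter, with 3 CpG, is the first printed above. Ermn is the only member among 18 myelin genes listed, of which 5 were tested.

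The other cytoskeletal members had lower ratios. Spire1, an actin nucleator, had 0.605, 0.951 and 1.14 CPM in WT and 3.93, 3.20 and 3.78 CPM in KO, a ratio of 4.04 with the KO libraries close together. Cib2, a calcium- and integrin-binding protein, had 0.936, 0.475 and 0.348 CPM in WT and 2.14, 2.53 and 1.42 CPM in KO (ratio 3.46), and WT 1 was above the other WT libraries. The remaining 7, among them the axonemal dynein Dnah11, the small GTPase Rac3, the minus-end kinesin Kifc3 and the septin Sept10, had ratios of 2.36 to 3.02. The counts of Dnah11 and Eml6 are uncertain because their exons overlap a far more abundant gene on the opposite strand, as given further on, and that of Kifc3 is uncertain too.

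Channels, receptors and their partners numbered 12, with a median ratio of 2.87 (2.103 to 8.23). Cacna1b encodes the pore of the N-type calcium channel, which drives transmitter release at synapses. It had 0.220, 0.285 and 0.298 CPM in WT and 1.74, 3.10 and 1.78 CPM in KO, with KO 2 highest and WT nearly even. The mean went from 0.268 ± 0.0418 to 2.20 ± 0.774 CPM (ratio 8.23). Trpm6, a magnesium channel with a kinase domain, had 0.220, 0.618 and 0.447 CPM in WT and 1.69, 2.53 and 1.9998 CPM in KO (ratio 4.84). Chrm4, the muscarinic acetylcholine receptor M4, had 0.440, 0.238 and 0.596 CPM in WT and 2.53, 1.60 and 1.60 CPM in KO (ratio 4.50), so here KO 1 was highest. Its exon model is short, and Chrm4 reached 1.33 RPKM in KO.

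Trpc1, a cation channel of receptor signalling, had a ratio of 4.32. Ric3, a chaperone of acetylcholine receptors, had 0.110, 0.333 and 0.646 CPM in WT and 1.04, 1.08 and 0.978 CPM in KO, and its ratio of 2.85 became 4.68 without WT 3. Other members of the group were Prrt2, Acvr1 (a BMP type I receptor), Syt17, Stac3, Gpr162 and Grk3, with ratios of 2.103 to 2.88. Among these, Gpr162 had the highest level, at 3.43, 3.10 and 3.20 CPM in KO and 1.38, 1.38 and 1.64 CPM in WT.

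Kinases and other signalling proteins made up 14 members with a median ratio of 2.60 (2.24 to 5.09). Map3k20 encodes ZAK, a kinase that responds to stalled ribosomes and feeds the p38 and JNK pathways. It had 0.495, 0.570 and 0.646 CPM in WT and 2.73, 3.67 and 2.31 CPM in KO, so the lowest KO library was over 3 times the highest WT one, and the mean went from 0.571 ± 0.0753 to 2.90 ± 0.694 CPM. Wwc1, the Hippo pathway protein KIBRA, had a ratio of 4.37, and Ajuba, a LIM protein of the same pathway, one of 2.46. Plekhh3 had 0.605, 0.523 and 0.845 CPM in WT and 1.59, 1.81 and 2.93 CPM in KO (ratio 3.21). The copines Cpne7 and Cpne2, phospholipase D1 (Pld1) and the Src-like kinase Srms were among the other 11, with ratios of up to 3.13. Srms had the highest WT mean of the group, at 1.499 ± 0.398 CPM, and 3.56 ± 0.665 CPM in KO.

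Transcription factors and linker histones numbered 9, with a median ratio of 2.41 (2.09 to 6.38). Tfcp2l1, a factor of naive pluripotency and kidney epithelium, had 0.165, 0.0951 and 0.248 CPM in WT and 0.845, 1.29 and 1.11 CPM in KO (ratio 6.38), all of it a low level. Glis2, a zinc finger factor related to the Gli proteins, had 1.93, 1.47 and 1.84 CPM in WT and 4.97, 4.70 and 4.27 CPM in KO (ratio 2.66), with little spread within either genotype. Klf12, a repressor of the Krüppel-like family, had 1.87, 1.28 and 1.59 CPM in WT and 3.33, 5.22 and 4.49 CPM in KO (ratio 2.75). Hey1, a target of Notch signalling, had 2.09, 1.52 and 2.09 CPM in WT and 4.37, 3.56 and 3.9995 CPM in KO (ratio 2.09). The clock factor Npas2 and Tub, Flywch2 and the linker histone genes Hist1h1e and Hist1h1d had ratios of 2.21 to 2.78. The sum of 70 histone cluster genes was 36.5 to 44.4 CPM in every library, with KO 1 and KO 3 above and KO 2 within the WT range.

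The 7 immune members had a median ratio of 2.41 (2.06 to 3.90) and included the highest levels per length. Gzmc, a cytotoxic granzyme, had 1.43, 2.14 and 1.94 CPM in WT and 3.53, 3.98 and 3.82 CPM in KO, so the genotypes were separated by a narrow ratio (2.06) but with little spread in KO. At 4.22 RPKM in KO it was the highest of the 85 per length. Il18, the inflammasome-processed cytokine interleukin 18, had 2.09, 1.19 and 1.89 CPM in WT and 3.97, 5.84 and 3.02 CPM in KO (ratio 2.48). Among the KO libraries KO 2 was the highest for Il18 and KO 3 the lowest, the order of the macrophage markers in KO. Against WT the 2 differed: KO 3 lay above every WT library for Il18, as the rule required. For the macrophage markers it lay below every WT library. Prss16, a serine protease of the thymic epithelium, had a ratio of 3.90 with WT values of 0.385, 0.380 and 0.397 CPM and KO values of 1.49, 1.76 and 1.29 CPM. Nlrp10, Lat2, the double-stranded RNA sensor Tlr3 and Cd1d2 had ratios of 2.24 to 2.89, and Cd1d2 is a near copy of Cd1d1, so its reads are uncertain.

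Enzymes and metal-binding proteins numbered 6, with a median ratio of 3.54. Capn11, a calpain protease known from testis, had no read in WT 1 and 0.998 and 1.64 CPM in WT 2 and WT 3, then 3.63, 7.69 and 12.0 CPM in KO. Both genotypes were widely spread, at 0.879 ± 0.826 and 7.76 ± 4.16 CPM, and the ratio of 8.82 was 5.88 without WT 1 and 15.5 without WT 3. Msrb3, a methionine sulphoxide reductase, had 2.15, 1.71 and 1.342 CPM in WT and 5.47, 9.45 and 7.55 CPM in KO (ratio 4.32), among the higher levels of the set. Pltp, the phospholipid transfer protein of plasma and macrophages, had 0.605, 0.475 and 0.348 CPM in WT and 2.09, 2.53 and 1.24 CPM in KO (ratio 4.10), in the same order over the KO libraries as Il18. Prss12, Maneal and the metallothionein Mt1 had ratios of 2.32 to 2.97.

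Genes of mitosis, germ line and early embryo numbered 4. Tex15, needed for meiosis and transposon silencing in male germ cells, had 0.936, 1.57 and 1.342 CPM in WT and 3.23, 3.77 and 4.44 CPM in KO (ratio 2.98). Knl1, a scaffold of the kinetochore, had 1.82, 1.57 and 1.84 CPM in WT and 3.38, 5.32 and 3.29 CPM in KO (ratio 2.29), and Pimreg, a mitotic regulator, 0.495, 0.475 and 0.447 CPM in WT and 1.29, 1.55 and 0.844 CPM in KO (ratio 2.60). The proliferation genes Mki67 and Top2a, which are no members, were called higher as well (edgeR adjusted p = 0.00219 and 0.00440), Mki67 with 47.0 ± 5.73 CPM in WT libraries and 73.2 ± 4.31 in KO libraries and Top2a with 31.9 ± 2.39 and 46.3 ± 3.36. Tdgf1, the embryonic co-receptor Cripto, had a ratio of 2.24. The last 12 members have other or little known roles, a median ratio of 2.29 and a highest ratio of 3.07, that of Tmem159. Fam81a (4.67 ± 0.445 CPM), Mgarp (4.55 ± 0.623 CPM) and Sspo (4.37 ± 0.648 CPM) had the highest KO means among them.

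The KO libraries did not contribute evenly. KO 2 was the highest KO library for 47 members (55.3%), KO 3 for 22 (25.9%) and KO 1 for 16 (18.8%), beside 42.0%, 33.6% and 24.5% of all tested genes. KO 1 was the lowest for 43 members (50.6%; 38.2% of tested genes). The order KO 2, KO 1, KO 3, which is that of the macrophage markers, was held by 22 members, among them Il18, Pltp, Sdc1, Knl1 and Pimreg (25.9%; 22.2% of tested genes and 30.8% of the other low genes open to the rule). In the other 63 members the order differed. The commonest order was KO 2, KO 3, KO 1, held by 25 members, among them Ermn, Adgrl2 and Cacna1b. That is 29.4%, beside 19.8% of tested genes and 17.9% of the other low genes. The order KO 3, KO 2, KO 1 was held by 18, among them Capn11, Cntnap1 and Ncam1 (21.2%, beside 18.4% and 18.6%). In KO 3 the macrophage markers summed to less than in any WT library. The members' sum there was 205.7 CPM, which the rule fixed to lie above every WT sum. Without KO 2 the rule was met by 84 genes, 76 of them members of the set of 85, a count from values that also chose the members. The part of other cell types in the members' levels was not tested beyond these values.

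**Figure D3:**
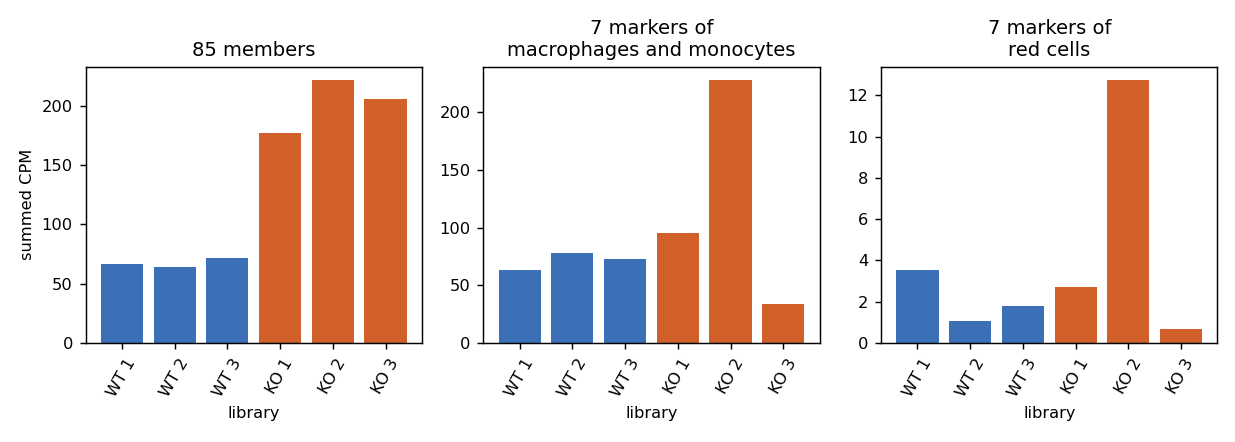
Summed level per library (CPM) of the 85 members, of 7 macrophage markers and of 7 red cell markers, with one bar per library, blue for WT and orange for KO. The members' sums lie between 63.9 and 71.6 CPM in WT and between 176.8 and 221.9 CPM in KO, while both marker sums peak in KO 2.

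Other markers gave the following sums. B cell markers summed to 14.6 to 17.8 CPM in WT and 8.71 to 12.1 CPM in KO, and CD8 T and NK cell markers to 28.5 to 33.0 and 25.7 to 28.7 CPM. Dendritic cell markers summed to 2.04 to 2.43 CPM in WT and 2.89 to 5.73 CPM in KO. Most of it was Zbtb46, at 1.57 to 1.98 CPM in WT and 2.76 to 3.46 CPM in KO. Itgax had 0.220 to 0.397 CPM in WT and 0.745, 1.39 and 0.0444 CPM in KO 1, 2 and 3. Neutrophil markers summed to at most 0.0951 CPM in WT and 0.311 to 0.696 CPM in KO, with Retnlg at 0 in all 6 libraries. Mast cell and basophil markers summed to 0.903 to 1.44 CPM in WT and 1.11 to 1.60 CPM in KO, most of it Cpa3, with Fcer1a and Mcpt8 at 0 in every library. Platelet markers summed to 1.59 to 2.23 and 1.341 to 2.79 CPM, most of it Itga2b, with Gp1bb at 0. Stromal and endothelial markers summed to 203.0 to 216.8 CPM in WT and to 211.5, 255.8 and 192.0 CPM in KO 1, 2 and 3. Nearly all of that was Pecam1 (189.6 to 253.0 CPM), which leukocytes also express, while Col3a1 and Kdr were at 0. Col1a2 was at 0.165 to 0.618 CPM in WT and 0.844 to 1.19 CPM in KO, and Cdh5 at up to 0.110 and 0.311 CPM. Both were higher in each KO library than in any WT library, as were 13.6% of all tested genes. The WT values of Cdh5 lay under the 0.133 to 0.165 CPM that a count of 0 allows. By edgeR, Col1a2 was not called (adjusted p = 0.178) and Cdh5 was not tested. None of these lists holds a member apart from Sdc1 in the plasma cell list.

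By chromosome, 12 members (14.1%) lay on chromosome 2 and 10 (11.8%) on chromosome 7, beside 8.60% and 8.32% of the 709 low genes open to the rule. Chromosome 15 had 0 members, where it holds 3.81% of those genes, and chromosome 4 had 1 (5.50%). Around the targeted gene, 3 members lay within 10 Mb of Smarcd2: Tns4 at -7.19 Mb, Plekhh3 at -5.10 Mb and Cntnap1 at -5.09 Mb, where the minus sign stands for a lower coordinate. This is 3.53% of members, beside 3.24% of the 709 and 1.86% of 23819 autosomal genes with a read. Within 5 Mb there were 0 members, and without KO 3 the rule gave 6 genes within 10 Mb.

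**Figure D4:**
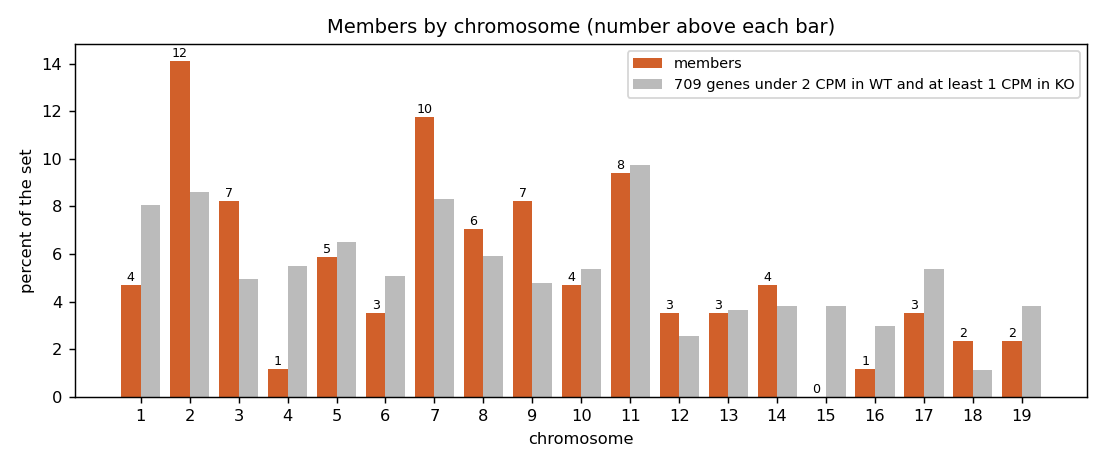
Share of genes on each autosome (percent) for the 85 members (orange) and the 709 low genes open to the rule (grey), with the number of members above each bar. Chromosomes 2 and 7 carry 12 and 10 members and chromosome 15 none.

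Within 200 kb of each other lay 7 members, in 5 pairs. Plekhh3 (chr11:101162679-101171351, minus strand) and Cntnap1 (chr11:101170523-101190724, plus strand) overlap and share 233 exon bases, and without a known strand setting in the counting their reads cannot be told apart in that stretch. Tub and Ric3 on chromosome 7 lie on opposite strands too and share 149 exon bases, and Nlrp10 lies 20.2 kb from Tub and 104.1 kb from Ric3. These 3 genes had ratios of 2.21, 2.85 and 2.89. Hist1h1d and Hist1h1e lie 59.9 kb apart with 3 tested genes between them.

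Genes next to a member were not chosen by the rule and could be tested, with a limit for Pls1 given below. The nearest tested gene on each side gave 164 neighbours that were not members, at a median distance of 27.5 kb. By edgeR's quasi-likelihood test 8 were called higher (4.88%) and 6 lower, beside 2.81% called higher among 13517 tested genes that were no members, and the median log2 ratio was 0.00 in both. The 14 calls became 6 without WT 2 and 8 without WT 1. In both directions together, 8.54% of neighbours and 6.03% of those other genes were called.

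Gzmb, the gene of granzyme B, lies 24.2 kb from Gzmc. It had 24.5, 21.8 and 24.8 CPM in WT and 79.5, 90.3 and 107.6 CPM in KO and rose (edgeR adjusted p = 3.24e-05), with a log2 KO to WT ratio of 1.95 ± 0.10 (SE). All KO libraries of Gzmb lay above all its WT libraries, which for the member Gzmc the rule had required. Ccr10, a chemokine receptor inside the span of Cntnap1, had 2.48, 1.95 and 3.38 CPM in WT and 5.81, 9.60 and 10.1 CPM in KO (log2 ratio 1.69, adjusted p = 0.00475), with KO 1 lowest as in Cntnap1. On chromosome 3, the kinase gene Dclk2, 65.7 kb from Cd1d2, rose from 19.6 ± 1.48 to 42.7 ± 4.73 CPM (log2 ratio 1.11, SE 0.09, adjusted p = 0.000273), and the lipid antigen-presenting gene Cd1d1, 6.05 kb from Cd1d2, from 35.8 ± 0.456 to 50.8 ± 3.22 CPM (0.50, adjusted p = 0.00172). Myo1e, 64.8 kb from Fam81a, had a log2 ratio of 0.41 (adjusted p = 0.00427).

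The other 3 higher neighbours held less firmly. Bco2, whose span overlaps Il18, had 2.37, 2.23 and 2.24 CPM in WT and 3.63, 9.66 and 4.84 CPM in KO (log2 ratio 1.38, adjusted p = 0.0328), and it was not called by limma-voom (adjusted p = 0.0770) or with any 1 WT library left out (up to 0.129). Bco2 was highest in KO 2, as Il18 was. Pls1, 2.27 kb from Trpc1, went from 0.241 ± 0.143 to 0.990 ± 0.250 CPM (2.03, adjusted p = 0.0271), lost with 5 of 6 single libraries left out (up to 0.122). It had 7, 5 and 2 reads in WT and 15, 19 and 28 in KO, so it passed the filter on low counts through its KO libraries. Of the limits of the rule it missed only that on the KO mean, so its call is not independent of the rule. Cyp4v3, 62.4 kb from Tlr3, had a log2 ratio of 0.39 (adjusted p = 0.0106), lost without WT 1 or WT 2 (up to 0.0507). Within 200 kb, 3 neighbours were called lower: Pkp4 beside Ccdc148 (log2 ratio -0.35, adjusted p = 0.0113), Slc29a1 near Capn11 (-0.35, adjusted p = 0.0405) and Rtf1 near Ltk (-0.19, adjusted p = 0.0328). The call of Pkp4 was lost without WT 2 (0.0637), that of Slc29a1 with 5 of 6 single libraries left out (up to 0.165) and that of Rtf1 with 4 of 6 (up to 0.113). The other 3 lower neighbours lay more than 200 kb away.

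**Figure D5:**
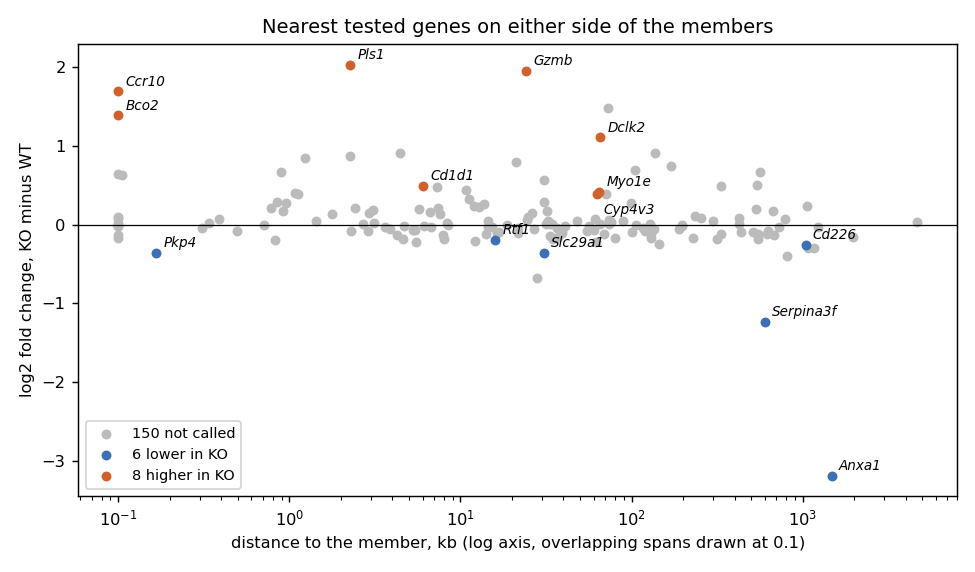
Log2 fold change (KO minus WT) of the nearest tested genes on either side of a member against their distance from it in kb (log axis), with genes called higher in orange, lower in blue and the others in grey. Most neighbours lie near 0, and among those called higher Pls1 (2.03), Gzmb (1.95) and Ccr10 (1.69) had the largest values. The lowest point, at -3.18, is a gene called lower that lies 1481 kb from its member.

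Exons of 22 members overlap a gene on the opposite strand, and for 8 the partner had at least 10 times the reads of the member, among them Anxa9 with Mindy1, Dnah11 with Cdca7l, Efemp2 with Mus81, Eml6 with Rtn4, Lat2 with Rfc2, Maneal with Yrdc and Pltp with Ctsa. The shared stretch is 36.3% of the exon bases of Lat2 and 19.3% of those of Pltp. For Pltp the partner had 105.3 times the reads. The partners themselves had log2 ratios between -0.13 and 0.10, and edgeR called 0 of the 8 (lowest adjusted p = 0.456), beside 6.45% of all tested genes. With partners this abundant, a change too small to be called could still matter for a member's count, so nothing is read from this. The part of partner reads in the members' levels was not tested. Whether reads were counted by strand is not given in the labels, and the counts of these 8 members are uncertain.

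Families around the members were mostly low in both genotypes. Of 134 neural adhesion genes, 127 had a WT mean under 2 CPM and 15 were tested, among them the members Cntnap1 and Ncam1, whose direction the rule fixed. Outside the members, edgeR called 2 higher and 1 lower, beside 2.81% of all tested non-members called higher. The higher ones were Dscam, a homophilic adhesion molecule of neurons, and Cdhr3, a cadherin-related protein. Dscam had 1.71, 2.04 and 2.58 CPM in WT and 9.79, 9.14 and 8.22 CPM in KO (log2 ratio 2.08, SE 0.18, adjusted p = 0.000312), just above the WT limit of 2 CPM, and Cdhr3 rose from 3.94 ± 0.270 to 10.7 ± 2.07 CPM (1.42, adjusted p = 0.00110). Cdh23 fell (log2 ratio -0.82, adjusted p = 0.00939; 0.0533 without WT 1).

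Of 143 voltage-gated channel genes 36 were tested. Besides the member Cacna1b, chosen on this contrast, the potassium channels Kcna2 and Kcna3 were called higher (2.81% of all tested non-members). Kcna2 rose from 9.71 ± 0.466 to 21.2 ± 2.50 CPM (log2 ratio 1.11, adjusted p = 0.000370). Kcna3, the main potassium channel of T cells, had a log2 ratio of 0.23 (adjusted p = 0.0374), which was lost with 5 of 6 single libraries left out (up to 0.175). Of 109 neurotransmitter receptor genes by symbol 18 were tested, the member Chrm4 included, and 2 non-members were called higher, Grik5 and Glrx, an enzyme listed by its symbol only. The call of Grik5 was lost with 5 of 6 single libraries left out (up to 0.135) and that of Glrx without WT 2 or WT 3 (up to 0.0625). Of 15 calpains 9 were tested, and besides the member Capn11 only Capn2 was called. Capn2 went from 126.9 to 161.6 CPM, and its call was lost without WT 1 or WT 2 (up to 0.0547).

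Cytotoxic and NK receptor genes went both ways. Of 45 such genes, 11 were tested. Besides the member Gzmc, Gzmb and Klrb1f were called higher and Klrb1c, Klrg1 and Prf1 called lower. Among all tested non-members 2.81% were called higher and 6.03% in both directions together. Klrb1c had 2.92, 2.66 and 2.14 CPM in WT and 1.49, 1.19 and 0.844 CPM in KO (log2 ratio -1.14, edgeR adjusted p = 0.0353). It met the limits of the rule with the genotypes exchanged. Klrb1f had 2.53, 2.04 and 2.63 CPM in WT and 5.86, 4.91 and 5.69 CPM in KO (log2 ratio 1.18, SE 0.18, adjusted p = 0.00491). Prf1, the gene of the pore protein perforin, was called lower (log2 ratio -0.68, adjusted p = 0.0221), opposite to Gzmb. The call of Prf1 was lost when any 1 WT library was left out (up to 0.0916), and that of Klrg1 without any 1 WT library or KO 1 (up to 0.123). Tex15 is the only member among 99 germ cell genes, of which 26 were tested. Another 7 lists, made by the start of the symbol or by name, held 0 members. They were developmental transcription factors (206 rows, 34 tested), morphogens and their receptors, collagens and matrix proteases, and muscle contraction genes. The others were keratins and claudins, cytokines, and olfactory and vomeronasal receptors (1992 of 1995 under 2 CPM in WT). These lists are not complete: the members Il18, a cytokine, Acvr1, a BMP receptor, and Tdgf1, a co-receptor, are in none of them.

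Of the 85 members, 26 carry a pathway name in the deposited annotation, and no pathway holds more than 3. Cell adhesion molecules included Cntnap1, Ncam1 and Sdc1 of 159 genes in the table, 9 of them low genes open to the rule. MAPK signalling included Cacna1b, Map3k20 and Rac3 of 16 such low genes. The glutamatergic synapse included Pld1, Trpc1 and Grk3, whose gap between the groups was only 0.0154 CPM. These were all 3 of the 3 low genes of that pathway open to the rule, where 12.0% of all 709 such genes were members. The cholinergic synapse, mineral absorption and morphine addiction each had 2 of 2. Such counts come from the values that chose the members and were not tested. The members are thus spread over many pathways, and most belong to none that the annotation names.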

How the data were processed

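The authors deposited 1 table of unnormalized whole read counts by Ensembl gene for 6 libraries (3 WT, 3 KO). Per the submitters' processing notes, HISAT2 2.1.0, DESeq2 1.34.0, fastp 0.23.2, Picard and build mm10 were used. The read counter and its strand setting are not given in the labels, so reads of overlapping genes may be shared. From the deposited counts, 27 symbols that had become dates were restored by gene identifier, and CPM was computed from column totals. Of 54232 genes, 24676 had a read and filterByExpr (minimum count 10, total 15) kept 13602.

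Genotype was tested with edgeR 4.0.16 (R 4.3.3), TMM normalization and a quasi-likelihood test without a block, called at a Benjamini-Hochberg adjusted p under 0.05 (877 genes, 6.45%). The fit was tested on simulated data. For a single gene an exact permutation test of 3 against 3 cannot go below p = 0.1. No 2 libraries of a genotype agreed within sampling noise (chi-square per degree of freedom at least 5.03). Exon lengths and overlaps came from GENCODE M21, with 82 of the 85 members at the same span, and promoters from RefSeq.

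Members, role groups and gene lists were chosen with earlier results of these data known. Named are the 10 members with the highest ratio and the 10 with the highest KO mean, those near Smarcd2, in a list, in a pair or at a limit, and called neighbours within 200 kb; other members, and Mki67, Top2a and Jchain, were named after their values were seen. A few genes covered by these choices are not reported here. Alternatives were RLE and library-size scaling, no filter, DESeq2 1.42.0, limma-voom 3.58.1, a replicate block, Y-linked reads as covariate, other limits and each library left out.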

Additional observations from a re-analysis of the deposited data

How the results depend on the processing

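The set of 85 genes depended on its limits. It held 156 genes with a KO mean of at least 0.5 CPM, 39 with at least 2 CPM, 138 at 1.5 times the WT mean and 19 at 4 times. With a library left out, the rule gave 84 to 126 genes, and 59 of the 85 met it whichever library was left out. TMM scaling gave the same 85. Members within 10 Mb of Smarcd2 numbered 3, with 0 within 5 Mb, and 3 to 6 with a library left out (6 without KO 3). Called genes numbered 877, and 1624 without a filter on low counts (812 higher and 812 lower), where more genes were tested. With a library left out they numbered 344 to 848 (344 without WT 1 or WT 2, 556 without WT 3). Called neighbours numbered 14, 27 without the filter, 8 within 50 kb, and 6 to 15 with a library left out. RLE, library-size scaling, DESeq2, limma-voom and the Y-linked covariate gave between 851 and 1010 called genes and between 13 and 16 called neighbours.

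The replicate block gave 738 called genes and 11 called neighbours. The numbers share only a label: over 11155 genes, deviations of same-numbered libraries correlated at -0.259, -0.0570 and 0.222, and WT 1 and KO 2 had the highest value, 0.388. In KO the members had 12 to 269 reads a library, and leaving out a WT library moved the ratios of Capn11, Ric3, Ncam1 and another member by at least 1.5 times. Over 595 alternatives the members' ratios lay between 1.49, under the limit of 2, and 28.7.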
